A study of Bos taurus with 170 samples.

Results

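RHEBL1 (RHEB like 1) and the genes of the mTOR complexes were followed in single blastomeres of bovine embryos at the time of major genome activation. The set was given as 8 genes: RHEBL1, RHEB, MTOR, RPTOR, RICTOR, MLST8, TSC1 and TSC2. Of these, 5 were listed among the 10772 genes of the deposited UMI table, namely RHEBL1, RHEB, RPTOR, RICTOR and MLST8. MTOR, TSC1 and TSC2 have no row in the table used here, so no level is given for them. A UMI (unique molecular identifier) marks 1 captured mRNA molecule, so PCR copies of it are counted as 1.

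Embryos were produced by in vitro maturation and fertilization of slaughterhouse oocytes, cultured without any treatment, freed of the zona and taken apart into single cells for SCRB-Seq, a plate-based method that counts the 3′ ends of polyadenylated transcripts. Day 2 embryos were at the 8-cell stage (6 embryos, 43 cells with 2000 or more UMI) and Day 3 embryos at the 16-cell stage (8 embryos, 118 cells). The parents of the embryos are not named in the labels. An embryo contributed 6 to 9 cells on Day 2 and 13 to 17 on Day 3. Totals on genes came to 438899 to 920192 UMI per Day 2 embryo and to 294912 to 600185 per Day 3 embryo, and the median cell held 75114 and 24016.5 UMI on genes, respectively.

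RHEB is a small GTPase that, in its GTP-bound form, activates the mTOR kinase in mTOR complex 1 at the lysosome, and RHEBL1 is its close relative in vertebrates. The TSC1-TSC2 complex turns RHEB off by stimulating hydrolysis of its GTP. RPTOR (raptor) recruits the substrates of mTOR complex 1, RICTOR is the defining subunit of mTOR complex 2, and MLST8 belongs to both complexes. The pathway links amino acids, growth factors and energy supply to protein synthesis and autophagy.

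CPM here stands for the number of UMI of a gene among 1000000 UMI on genes, both summed over the cells of an embryo. A CPM is thus a share of the molecules captured and not a number of molecules per cell. Since each molecule was counted once at its 3′ end, the length of a transcript does not enter the values, and levels of different genes were compared on this scale. Intervals of single embryos are exact 95% Poisson intervals and cover counting error only.

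Before the levels are given, 3 features of the libraries have to be stated. To begin with, Day3-E1 lay close to the Day 2 embryos. Of the 1241 genes that were higher on Day 3 in the test without this embryo, 902 (72.7%) were in Day3-E1 no higher than in the highest Day 2 embryo. In the other Day 3 embryos, each tested the same way, this share was 4.88% to 41.9%. Next, the labels place the cells in 2 sets of cell barcodes. The first set was used for Day3-E1, Day3-E2 and every Day 2 embryo, and the second for Day3-E4 to Day3-E8. Day3-E3 was not assigned to a set here. If the 2 sets share no barcode, the barcodes that the days have in common place it in the first set. Fits within the first set are without Day3-E3 unless it is named. In addition, the UMI on genes per UMI on ERCC spike-ins, synthetic RNAs added in equal amount to each well, followed the barcode set. It was 64.8 to 71.7 in the Day 2 embryos and 67.3 to 70.5 in Day3-E1, Day3-E2 and Day3-E3, and 32.6 to 40.2 in Day3-E4 to Day3-E8. Of 93 distinct cell barcodes, 77 were used by 2 of the 170 deposited cells each, and 47 of these by a cell of each day, so that the plate or pool index was needed to keep the cells apart.

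RHEBL1 was low and even among Day 2 embryos and spread widely among Day 3 embryos. It was at 64.1, 42.4, 65.96, 53.3, 58.9 and 70.6 CPM in Day2-E1 to Day2-E6. In Day3-E1 to Day3-E8 it was at 63.3, 163, 249, 577, 359, 820 and 698 CPM in the first 7 and at 409 CPM in the last. Day3-E1 was within the range of the Day 2 embryos, and each of the other 7 Day 3 embryos was above all of them, with the lower limit of its counting interval (120.0 CPM in Day3-E2, the lowest of the 7) above the upper limit of the highest Day 2 embryo (100.3 CPM). Placed in the order of their levels, neighbouring Day 3 embryos had overlapping intervals except for Day3-E4 and Day3-E8 (498 to 664 and 348 to 478 CPM) and for Day3-E2 and Day3-E1 (120.0 to 216 and 44.8 to 86.9 CPM).

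The means were 59.2 ± 10.18 CPM for the 6 Day 2 embryos and 417 ± 264 CPM for the 8 Day 3 embryos (SD). With TMM scaling of the library sizes, which these means do not contain, the log2 fold change was 3.137 (SE 0.49, 95% interval 2.111 to 4.16, adjusted p = 0.000288, quasi-likelihood test of edgeR, Benjamini-Hochberg adjustment over 5274 genes). Without TMM scaling it was 2.82 (adjusted p = 0.000145, edgeR). Of the 5 listed members, 4 had enough UMI in enough embryos to be tested, and RHEBL1 was the 1 that was called, higher on Day 3. Without Day3-E1 its log2 fold change was 3.31 (SE 0.35, adjusted p = 1.86e-06), and RHEB and RICTOR were again not called, while RPTOR then did not reach the UMI minimum of the test. Over all genes tested, 31.7% were called. Those called higher on Day 3 were 21.3% (1123 genes), and 551 genes were called lower.

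The rise of RHEBL1 overlapped with the barcode set. The 5 embryos of the second set held 359 to 820 CPM, the 2 Day 3 embryos of the first set 63.3 and 163 CPM, and Day3-E3 249 CPM. Within the first set alone the log2 fold change was 1.13 (95% interval 0.35 to 1.91, adjusted p = 0.0971, edgeR, 6 against 2 embryos), and with Day3-E3 added it was 1.61 (0.85 to 2.37, adjusted p = 0.0177). With the barcode set as a term of the fit and Day3-E3 left out, it was 1.11 (adjusted p = 0.199). Day and barcode set therefore cannot be told apart for most of the difference.

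The sample titles end in p1, p2 or p3, read here as plates 1, 2 and 3. This reading is an inference from the titles, and the suffix may mark another kind of batch. The plates carried both days in part. On plate 2, RHEBL1 was at 58.9 and 70.6 CPM in the Day 2 embryos and at 409 and 698 CPM in the Day 3 embryos. On plate 3 it was at 42.4 to 65.96 CPM in 4 Day 2 embryos and at 359 and 820 CPM in 2 Day 3 embryos. Plate 1 held Day 3 embryos only (63.3 to 577 CPM). The log2 fold change within plates 2 and 3 was 3.52 (SE 0.26, adjusted p = 2.7e-07, edgeR), but on these plates all Day 2 embryos carried the first barcode set and all Day 3 embryos the second.

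**Figure D1:**
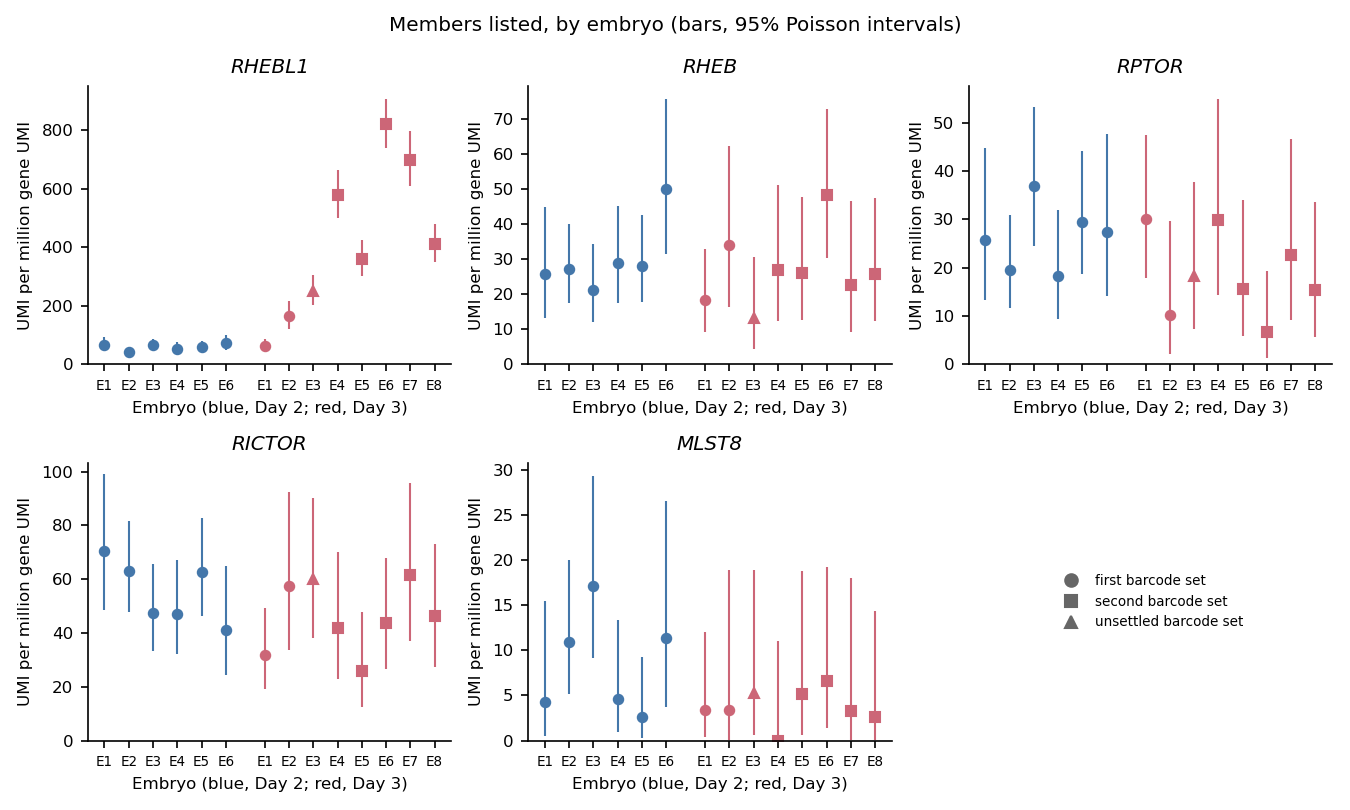
Level of each listed gene (y axis, UMI per 1000000 UMI on genes, linear from 0, each panel on its own scale) in the 6 Day 2 embryos (blue) and 8 Day 3 embryos (red), with exact 95% Poisson intervals as bars and the barcode set as the marker shape. RHEBL1 was above 160 in 7 of 8 Day 3 embryos and below 71 in every Day 2 embryo, while the levels of RHEB, RPTOR, RICTOR and MLST8 overlapped between the days.

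**Figure D2:**
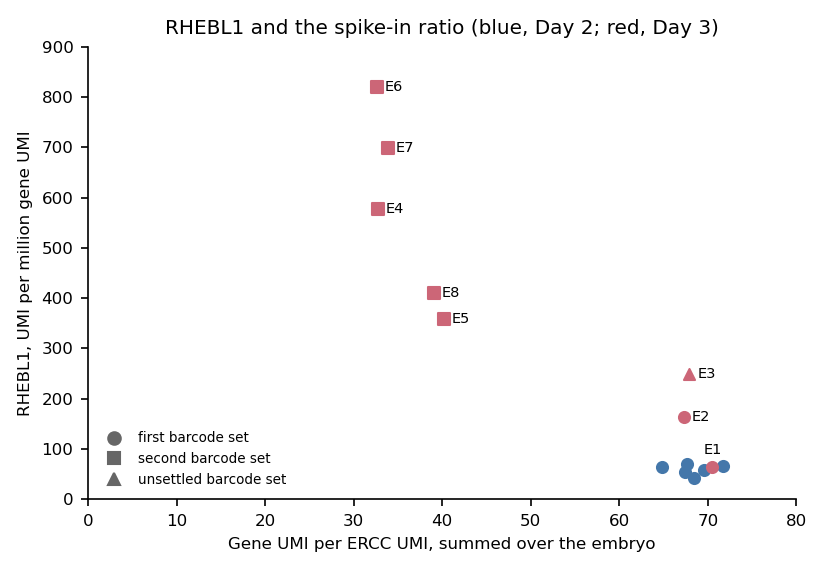
RHEBL1 (y axis, UMI per 1000000 UMI on genes) against the UMI on genes per UMI on ERCC spike-ins (x axis), 1 point per embryo, blue for Day 2 and red for Day 3, with the barcode set as the marker shape. The 5 embryos of the second set stood at 32.6 to 40.2 on the x axis and held the highest RHEBL1, and Day3-E2 and Day3-E3 held more RHEBL1 than the Day 2 embryos at the same ratio to the spike-ins.

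Relative to the spike-ins, RHEBL1 was at 2.899 to 4.78 UMI per 1000 ERCC UMI in the Day 2 embryos and at 4.46 in Day3-E1. In the other Day 3 embryos it was at 10.96 to 26.7. With the spike-in totals as library sizes, a choice made after seeing the data, the log2 fold change of RHEBL1 was 2.03 (SE 0.36, adjusted p = 0.000383, edgeR), while the median over all genes moved from -0.03 to -0.77. RHEBL1 was thus higher on Day 3 on both scales, by an amount that differed between them.

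RHEB did not follow RHEBL1. It was at 25.6, 27.2, 21.1, 28.9, 28.2 and 50.1 CPM in the Day 2 embryos, from 12 to 25 UMI each. In the Day 3 embryos it was at 13.09 CPM in the lowest (Day3-E3), 25.9 CPM as the median and 48.2 CPM in the highest (Day3-E6), from 5 to 22 UMI each. The ranges of the days overlapped over nearly their whole length. For RHEB the log2 fold change was 0.12 (SE 0.31, 95% interval -0.52 to 0.76, adjusted p = 0.79, edgeR), an interval that includes no change and leaves room for a moderate change in either direction.

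RPTOR was at 25.6, 19.6, 36.9, 18.3, 29.4 and 27.3 CPM in the Day 2 embryos. In the Day 3 embryos it was at 6.57 CPM in the lowest (Day3-E6), 16.96 CPM as the median and 29.99 CPM in the highest (Day3-E1). The 3 UMI in each of Day3-E2 and Day3-E6 were at the limit of what this depth can show. The groups overlapped, and the log2 fold change of -0.22 (95% interval -0.89 to 0.45) was not called (adjusted p = 0.625, edgeR).

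RICTOR was at 70.5, 63.0, 47.5, 47.2, 62.7 and 41.0 CPM in the Day 2 embryos. On Day 3 its lowest level was 26.0 CPM (Day3-E5), its median 45.1 CPM and its highest 61.4 CPM (Day3-E7). Its log2 fold change was 0.01 (95% interval -0.53 to 0.54, adjusted p = 0.988, edgeR). As for RHEB and RPTOR, the interval did not reach the change of RHEBL1.

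MLST8 had the fewest UMI. On Day 2, 35 UMI were counted in all, 2 to 13 per embryo, which gave 2.56 to 17.2 CPM. On Day 3, 12 UMI were counted, 0 to 3 per embryo. Day3-E4 had 0 of 334590 UMI, which allows a level of up to 8.97 CPM at a limit of 3 UMI in that embryo, while the two-sided Poisson interval drawn in the plot of levels reaches 11.03 CPM. MLST8 did not pass the minimum of UMI counts for the test, and when this minimum was dropped its log2 fold change was -0.97 (SE 0.56, adjusted p = 0.228, edgeR). A difference between the days was not detectable at this depth.

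On the spike-in scale RHEB and RICTOR were not called and RPTOR was called close to the threshold. The log2 fold change was -0.77 for RHEB (adjusted p = 0.0717), -1.01 for RPTOR (adjusted p = 0.0495) and -0.79 for RICTOR (adjusted p = 0.0636, all from edgeR), beside the median of -0.77. The sign for RHEB and RICTOR thus depended on the scale, and RPTOR was called on this scale only.

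The order of the mean levels was the same on both days. On Day 2 the means were 59.2 ± 10.18 CPM for RHEBL1, 55.3 ± 11.64 for RICTOR, 30.2 ± 10.153 for RHEB, 26.2 ± 6.85 for RPTOR and 8.47 ± 5.61 for MLST8 (SD, n = 6). RHEBL1 was above RICTOR in 3 of 6 Day 2 embryos (exact two-sided sign-flip test, p = 0.656) and RHEB above RPTOR in 3 of 6 (p = 0.562), so neither pair of neighbours differed beyond its spread. On Day 3 the means were 417 ± 264 CPM for RHEBL1, 46.1 ± 13.114 for RICTOR, 26.9 ± 10.61 for RHEB, 18.6 ± 8.52 for RPTOR and 3.69 ± 2.01 for MLST8 (SD, n = 8). RHEBL1 was above RICTOR in 8 of 8 Day 3 embryos (p = 0.00781, the smallest that 8 embryos allow in this exact test), and RHEB was above RPTOR in 4 of 8 (p = 0.219). Over the 8 pairs of neighbours compared, none passed after Benjamini-Hochberg adjustment of the exact p-values, the lowest adjusted p being 0.0625 for RHEBL1 over RICTOR, RICTOR over RHEB and RPTOR over MLST8 on Day 3 and for RPTOR over MLST8 on Day 2.

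RHEBL1 and RHEB are counted in the same cells, so the ratio of their summed UMI is not changed by the library size of an embryo, but it weights deep cells more than shallow ones. In the Day 2 embryos the ratio of RHEBL1 to RHEB UMI was 2.5, 1.56, 3.125, 1.84, 2.09 and 1.41. In Day3-E1 to Day3-E4 it was 3.45, 4.8, 19 and 21.4, in Day3-E5 it was that of 138 RHEBL1 to 10 RHEB UMI, and in Day3-E6 to Day3-E8 it was 17, 30.9 and 15.9. By summed UMI every Day 3 embryo was above every Day 2 embryo, and Day3-E1 and Day3-E2 were the lowest of their day. Summed over all cells, 231 RHEBL1 and 116 RHEB UMI on Day 2 gave a ratio of 1.99, and 1261 and 84 UMI on Day 3 a ratio of 15.01.

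The mean log2 ratio, with 0.5 UMI added to each count, was 0.99 ± 0.42 over the 6 Day 2 embryos and 3.62 ± 1.08 over the 8 Day 3 embryos (SD). The difference of 2.63 corresponds to a 6.2-fold higher ratio (exact two-sided permutation test over all 3003 splits, p = 0.000666). With cells thinned to equal depth the ratio was 8.98-fold higher (exact permutation test, p = 0.000999), and on the deposited normalised values, whose scaling was not retraced and where the ratios of the days overlapped, 8.51-fold (p = 0.0103, exact permutation test). Without Day3-E1 the difference was 2.902 (exact permutation test, p = 0.00117). Within the first barcode set it was 0.99, with 2 Day 3 embryos and p = 0.0357, which is the smallest p that this exact test allows with 6 against 2 embryos. Adding Day3-E3 gave 1.701 (exact permutation test, p = 0.0119). Within plates 2 and 3 the difference was 3.21 (p = 0.0111, exact permutation of the days within each plate over 90 arrangements). The ratio was thus higher on Day 3 in each of these subsets, by about 1 on the log2 scale within the first set and about 3 on plates whose days differed in set.

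The precision of the ratio was set by RHEB. In Day3-E7, 216 RHEBL1 and 7 RHEB UMI came to a ratio of 30.9 (exact 95% interval 14.72 to 77.7). In Day3-E1, 38 and 11 UMI came to 3.45 (1.73 to 7.49). The interval of Day3-E1 included the ratio of 4 of the 6 Day 2 embryos, and the intervals of Day3-E3 to Day3-E8 all began above 7, beyond the upper limit of every Day 2 embryo (5.88 at the most).

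**Figure D3:**
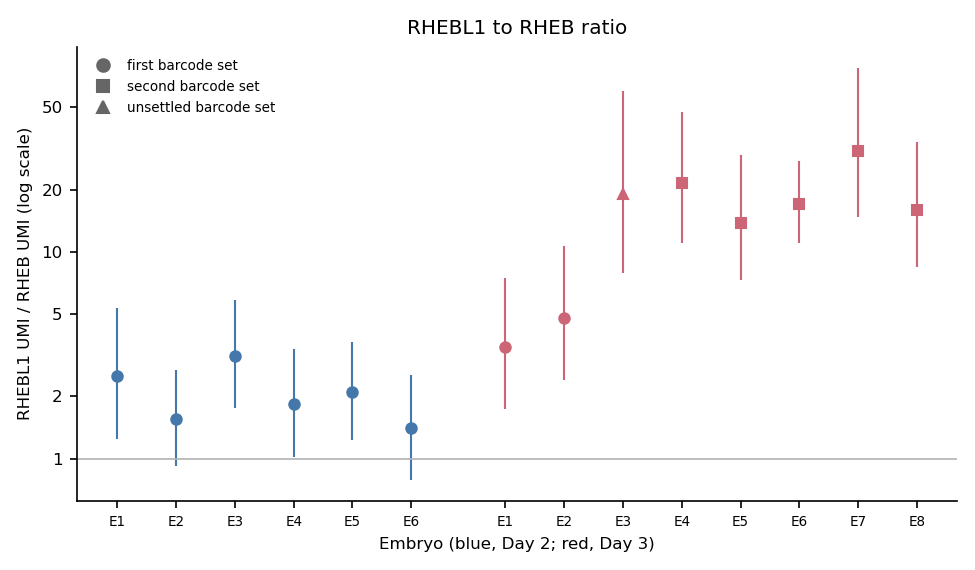
Ratio of RHEBL1 to RHEB UMI (y axis, log scale) in each embryo, with exact 95% intervals as bars, blue for Day 2, red for Day 3 and the barcode set as the marker shape. Day 2 embryos stood between 1.41 and 3.125, Day3-E1 and Day3-E2 at 3.45 and 4.8, and the other Day 3 embryos above 10.

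In single cells the same order was seen. On Day 2, 27 of 43 cells had more RHEBL1 than RHEB UMI, 7 had fewer, 4 had equal numbers above 0 and 5 had neither. On Day 3, 105 of 118 cells had more RHEBL1, 4 had more RHEB, 2 had equal numbers above 0 and 7 had neither. The 4 Day 3 cells with more RHEB belonged to Day3-E1 and Day3-E2, with 2 cells each. Both transcripts were found together in 30 Day 2 cells and in 48 Day 3 cells, and RHEBL1 without RHEB in 6 and 60 cells, respectively.

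The share of cells with a UMI depends on the depth of the cells, which was higher on Day 2. RHEBL1 was detected in 83.3 ± 11.502% of the blastomeres per Day 2 embryo (SD, n = 6) and 91.4 ± 9.06% per Day 3 embryo (SD, n = 8). With each cell thinned to 10000 UMI, which left out 6 Day 2 and 15 Day 3 cells as too shallow, the shares were 44.5 ± 15.54% and 82.7 ± 24.9%. RHEB was detected in 74.9 ± 19.0% and 43.5 ± 15.7% of the cells, and in 33.9 ± 12.02% and 20.9 ± 11.31% after thinning. RICTOR, which went from 83.2 ± 14.18% to 53.7 ± 11.96% in the cells as deposited, was found in 34.5 ± 6.87% and 34.1 ± 6.89% of the thinned cells. The gap between the days for RICTOR was thus seen at unequal depth and not at equal depth. RPTOR was found in 23.1 ± 13.59% and 14.98 ± 11.297% of the thinned cells and MLST8 in 7.798 ± 8.89% and 5.71 ± 3.55%.

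The spread of RHEBL1 between the cells of an embryo was measured with the index of dispersion, the variance of the UMI counts around those expected from the depth of each cell, divided by that expectation. Counting error alone gives an index near 1. In the Day 2 embryos the index was 0.46, 1.11, 0.83, 2.6, 0.78 and 1.07, with a median over genes of the same embryos (those with 30 or more UMI) of 1.19 to 1.39. In the Day 3 embryos it was 1.81, 1.08, 1.54, 2.27, 12.6, 5.79, 2.67 and 2.3, beside a median over genes of 1.25 to 1.89. In 5 of 6 Day 2 embryos the index of RHEBL1 was therefore below the median of the genes, and in 7 of 8 Day 3 embryos it was above it (6 of 8 with cells of 10000 or more UMI).

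The index was highest in Day3-E5 and Day3-E6. In Day3-E6, RHEBL1 ranged from 196 to 1923 CPM among 14 cells, all of which held 10000 or more UMI, and 97.0% of the 3025 genes compared had a lower index. In Day3-E5 the highest cell held 11 RHEBL1 UMI among only 2852 UMI on genes (3857 CPM). Without cells below 10000 UMI, the 13 remaining cells of Day3-E5 ranged from 93.7 to 1272 CPM, and the index was 7.119, still higher than that of 98.9% of the genes compared. In Day3-E4, with 11 such cells from 252 to 1000.4 CPM, the index was 2.36 and 68.0% of the genes were lower. A higher level alone raises the index where cells differ by the same proportion. The excess of the squared coefficient of variation over counting error, which does not grow with the level in this way, was -0.11 to 0.32 in the Day 2 embryos and 0.024 to 1.43 in the Day 3 embryos. It was 0.179 in Day3-E6, below that of Day2-E4 (0.32) and Day3-E1 (0.299), so Day3-E6 was not the most variable by this measure. The 1.43 was that of Day3-E5, and with cells of 10000 or more UMI it was 0.737. The difference between the days was not tested.

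Of the variance of log2(CPM + 50) of RHEBL1 over cells, 4.98% lay between embryos on Day 2 (43 cells) and 49.5% on Day 3 (118 cells). These shares are not directly comparable, since the index of the Day 2 embryos, 1.14 on average, was close to that of counting error, which adds to the variance within embryos and lowers the share between them. The difference between the shares was not tested. The Day 3 share includes the difference between embryos of the 2 barcode sets.

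**Figure D4:**
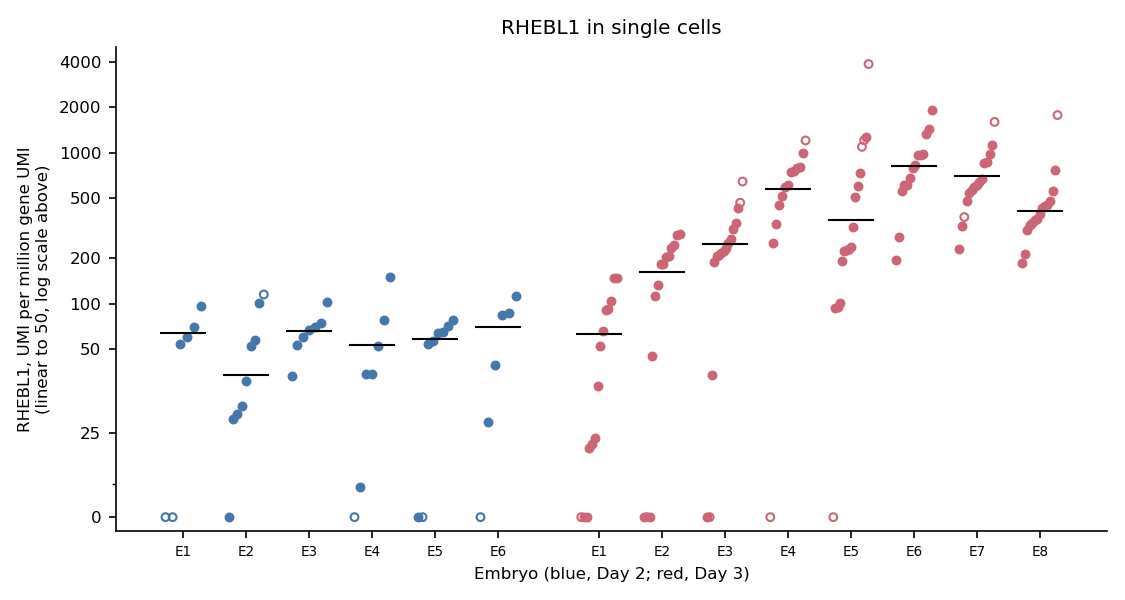
RHEBL1 in each cell with 2000 or more UMI (y axis, UMI per 1000000 UMI on genes, linear up to 50 and on a log scale above), grouped by embryo, blue for Day 2 and red for Day 3. Filled points are cells with 10000 or more UMI on genes, open points are shallower cells, and horizontal lines give the level summed over the embryo. Cells of Day3-E6 ranged from 196 to 1923, and cells of Day3-E1 lay at the levels of Day 2 cells, from 0 to 148.

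The other genes of the pathway were taken in 7 lists of 96 genes in all. Of these, 75 were listed in the UMI table, 49 were tested, 12 were higher and 4 lower on Day 3, beside 1123 and 551 of all 5274 genes tested. The median log2 fold change over the 49 genes was 0.19, beside -0.03 over all genes tested. Without TMM scaling 8 were higher and 5 lower, and with spike-in library sizes 3 were higher and 11 lower. The split between higher and lower thus moved with the scaling, as it did for all genes, and no direction is given to the pathway as a whole.

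Among the other subunits of the mTOR complexes, 4 of 7 listed genes were tested and 1 was called, beside 31.7% of all genes tested. This was PRR5 (protor 1, a RICTOR-binding subunit of mTOR complex 2). PRR5 was at 2.17 to 4.57 CPM in the Day 2 embryos. On Day 3 it was at 1.67 CPM in Day3-E1, which was the lowest, 82.4 CPM as the median and 146 CPM in Day3-E4. The log2 fold change was 4.78 (SE 0.73, adjusted p = 0.000252, edgeR). With spike-in library sizes it was 3.77 and called (adjusted p = 0.000147), with the barcode set as a term it was 3.87 and not called (adjusted p = 0.0667), and within the first barcode set PRR5 was not tested. AKT1S1 (PRAS40, an inhibitor in mTOR complex 1), MAPKAP1 (SIN1, of mTOR complex 2) and TTI2 had log2 fold changes of -0.39, -0.40 and 0.38 and were not called.

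Among the genes that act directly on RHEB, TBC1D7, which joins TSC1 and TSC2 in their complex, fell from 113 ± 10.84 CPM on Day 2 to 59.9 ± 29.4 CPM on Day 3 (log2 fold change -0.67, SE 0.24, adjusted p = 0.0428, edgeR). Its level in Day3-E1 was 99.97 CPM, just below the lowest Day 2 embryo (100.4 CPM). PDE6D, a carrier of prenylated GTPases, was tested and not called (-0.13), and FKBP8 had too few UMI in too many embryos to be tested.

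The Rag GTPases and the Ragulator, which bring mTOR complex 1 to the lysosome, had 8 tested genes, 1 of them higher and 1 lower. Beside this, 31.7% of all genes tested were called in either direction. LAMTOR4, a Ragulator subunit, rose from 21.1 ± 5.83 CPM to 64.6 ± 43.4 CPM (log2 fold change 1.93, SE 0.46, adjusted p = 0.00496, edgeR). RRAGD fell from 156 ± 33.6 CPM to 85.4 ± 37.7 CPM (-0.65, SE 0.24, adjusted p = 0.0476). The other 6, RRAGA and the Ragulator subunits LAMTOR1, LAMTOR2, LAMTOR3 and LAMTOR5 among them, had log2 fold changes of -0.44 to 0.65. LAMTOR4 was not called with spike-in library sizes (0.89, adjusted p = 0.0601, edgeR).

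The GATOR complexes relay the amino acid supply to the Rag GTPases. Of 9 genes tested in this group, 2 were higher and 2 lower, beside 31.7% of all genes tested called in either direction. The called genes encode subunits of GATOR2, but GATOR2 was not tested as a group. WDR59 rose from 43.7 ± 4.17 to 131 ± 58.9 CPM (log2 fold change 1.90, SE 0.36, adjusted p = 0.00105, edgeR) and SEH1L from 277 ± 36.4 to 381 ± 121 CPM (0.79, adjusted p = 0.0315). MIOS fell from 77.5 ± 8.03 to 40.3 ± 12.6 CPM (-0.69, SE 0.21, adjusted p = 0.0219, edgeR), and SEC13 from 195 ± 30.9 to 111 ± 33.9 CPM (-0.56, adjusted p = 0.0381). For MIOS all Day 3 embryos were below all Day 2 embryos, and 9.37% of all genes tested had ranges apart in either direction. SEH1L and SEC13 are also subunits of the nuclear pore. SEH1L was not called without TMM scaling (log2 fold change 0.45, adjusted p = 0.102) and had a negative sign with spike-in library sizes (-0.14, adjusted p = 0.678).

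Upstream of the TSC complex, the list of insulin and PI3K inputs had 7 tested genes, 1 of them higher and 0 lower on Day 3. The share called over all genes tested was 31.7%, with 21.3% called higher. The PI3K catalytic subunits PIK3CA, PIK3CB and PIK3CD, the regulatory subunit PIK3R1 and the receptor IGF1R were tested and not called, with log2 fold changes of -0.77 to 0.25. Of 7 genes of the AMPK and stress inputs, STRADB, a pseudokinase of the LKB1 complex, was called with a log2 fold change of 0.91 (adjusted p = 0.0246), from 71.8 ± 23.2 to 114 ± 50.9 CPM. It was not called without TMM scaling (adjusted p = 0.0938). With spike-in library sizes STRADB was not called either (0.12, adjusted p = 0.786, edgeR).

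Of the targets and effectors of mTOR, 22 of 24 genes were listed and 12 tested, of which 6 were higher and 0 lower on Day 3, beside 21.3% of all genes tested called higher and 31.7% called in either direction. Their median log2 fold change was 0.60. Without TMM scaling 4 were higher and 0 lower, beside 885 and 966 of all 5274 genes, and with spike-in library sizes 1 was higher and 1 lower, beside 455 and 1877 of all genes (44.2% called). SGK1, a kinase phosphorylated by mTOR complex 2, was at 13.04 to 29.9 CPM in the Day 2 embryos. On Day 3 it was at 96.6 CPM in the lowest (Day3-E1), 379 CPM as the median and 864 CPM in the highest (Day3-E4). The groups did not overlap, as for 9.37% of all genes tested, and the log2 fold change was 4.72 (SE 0.56, adjusted p = 4.6e-05, edgeR). SGK1 kept its call within the first barcode set, with a log2 fold change of 3.59 (adjusted p = 0.00379).

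PDCD4, an inhibitor of translation initiation that is degraded after phosphorylation by S6 kinase, rose from 20.8 ± 3.34 to 54.6 ± 43.9 CPM (log2 fold change 1.75, adjusted p = 0.021, edgeR). ATG13, of the autophagy initiation complex, rose from 41.6 ± 11.63 to 80.6 ± 44.8 CPM (1.29, adjusted p = 0.0254), and EIF4B, a translation initiation factor, from 174 ± 25.5 to 294 ± 107 CPM (1.09, adjusted p = 0.0102). These 3 genes were no longer called with spike-in library sizes, where their log2 fold changes were 0.67, 0.31 and 0.19. RPS6KB1 (S6 kinase 1), EIF4E and EEF2K were tested and not called (0.22, -0.50 and 0.04), and EIF4EBP1 and ULK1 had too few UMI in too many embryos to be tested.

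**Figure D5:**
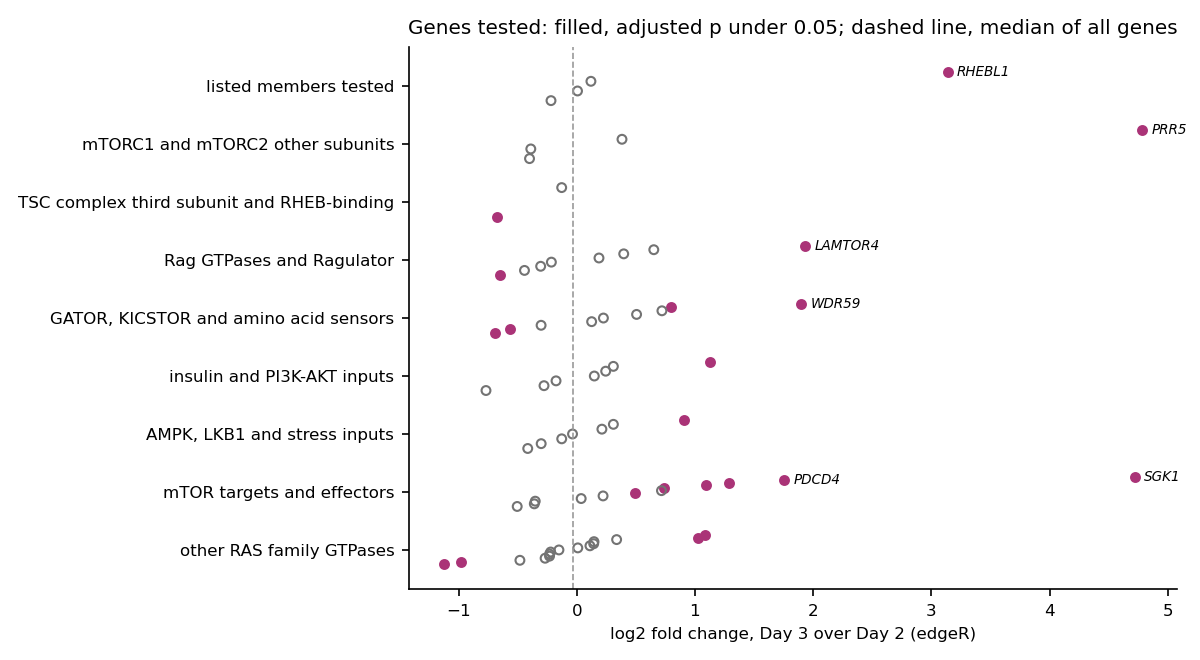
The log2 fold change of Day 3 over Day 2 (x axis) of each gene tested, by list (rows), with genes at an adjusted p under 0.05 filled and the median of all genes as a dashed line. RHEBL1 (3.137), PRR5 (4.78) and SGK1 (4.72) were the 3 genes above 2, and the other genes tested lay between -1.12 and 1.93.

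Of 29 other RAS family GTPases, 24 were listed and 15 tested, 2 of them higher and 2 lower on Day 3. Their median log2 fold change was -0.15. Of all 5274 genes tested, 31.7% were called and 21.3% were called higher, and a difference of the RAS family from these shares was not tested. RAP1B and RAP2A rose by 1.08 and 1.02 on the log2 scale (adjusted p = 0.00361 and 0.00337, edgeR), with all Day 3 embryos above all Day 2 embryos for both. Ranges were apart in either direction for 9.37% of all genes tested. RAP1A fell by 1.12 (adjusted p = 0.0325, edgeR). RAP1B went from 174 ± 24.0 to 297 ± 83.4 CPM and RAP1A from 457 ± 77.6 to 185 ± 133 CPM. Beside them RHEBL1 changed by 3.137 over all embryos, and the difference from RAP1B was not tested. Within the first barcode set the log2 fold change was 1.134 for RAP1B (adjusted p = 0.049) and 1.131 for RHEBL1 (adjusted p = 0.0971, both from edgeR). With the barcode set as a term it was 1.105 and 1.111, so that both genes had nearly the same value in these fits, which left out Day3-E3. With Day3-E3 added to the first set, the log2 fold change was 0.92 for RAP1B (adjusted p = 0.0596) and 1.61 for RHEBL1 (adjusted p = 0.0177, both from edgeR). With spike-in library sizes RAP1B and RAP2A were not called (0.24 and 0.14).

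Of the 49 pathway and 15 RAS family genes tested, 20 were called. These 20 were chosen by the fit over all embryos, so their calls in other fits are set beside those of all 1674 genes that it called. Within the first barcode set, a fit that called 3.23% of the genes it tested, 19 of the 20 could be tested, all 19 had the same sign and 2 were called, beside 195 of the 1674. With the barcode set as a term and Day3-E3 left out (2.17% of genes called), 1 of the 20 and 113 of the 1674 were called. On plates 2 and 3 alone, with the plate as a term (37.9% called), it was 19 of the 20 and 1470 of the 1674. With spike-in library sizes (44.2% called), 9 of the 20 were called and 17 had the same sign, and 1006 of the 1674 were called. These fits share embryos, so the counts are a description.

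The genes whose levels were most like RHEBL1 over the 14 embryos, by Pearson's r of log2(CPM + 1), were SRSF2 (a splicing factor, r = 0.977), SIAH1 (a ubiquitin ligase, r = 0.971), PPM1N (r = 0.967), FAU (a ribosomal protein, r = 0.966) and HNRNPH1 (an RNA-binding protein, r = 0.966). SRSF2 was at 145 to 207 CPM in the Day 2 embryos, at 198 CPM in Day3-E1 and at 482 to 1212 CPM in the other Day 3 embryos. FAU was at 455 to 636 CPM in the Day 2 embryos, at 758 CPM in Day3-E1 and at 2251 to 5868 CPM in the others. Each of these 5 genes had its lowest Day 3 level in Day3-E1, as RHEBL1 did. Over the 5273 other genes tested, 5% had an r above 0.856, and the median was -0.40. Over the 8 Day 3 embryos alone, LENG8 (r = 0.977), ADAMTS1 (a secreted metalloprotease, r = 0.974), PPM1N (r = 0.972), SRSF2 (r = 0.965) and ING1 (a chromatin-binding protein, r = 0.961) came first.

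For the other members, r with RHEBL1 was 0.06 for RHEB, -0.21 for RICTOR and -0.49 for RPTOR over the 14 embryos, and 0.46, 0.24 and -0.31 over the 8 Day 3 embryos. The highest of them, RHEB over the Day 3 embryos, ranked 837 of 5273 genes. These correlations are descriptions, as the embryos share their day, barcode set and plate.

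Markers of other cells were summed for each embryo. The oocyte and blastomere list (10 of 15 genes listed, DPPA3 the most abundant, 0 genes at 0 UMI) came to a total of 9782 to 11611 CPM per Day 2 embryo and 3192 to 12399 CPM per Day 3 embryo. The cumulus and granulosa cell list (12 of 15 genes listed) summed to 611 to 772 CPM on Day 2 and 278 to 731 CPM on Day 3, most of it HAS2, STAR and SERPINE2. In all 161 cells, HAS2, STAR and SERPINE2 had 1659, 1560 and 1052 UMI, and INHBA and VCAN had 133 and 131. TNFAIP6, AMH, PTX3 and HSD3B1 had 36, 11, 9 and 6 UMI, and CYP11A1, FOXL2 and INHA had 3, 3 and 1. No listed gene of this list was at 0 UMI. The sperm list summed to at most 7.72 CPM and the blood cell list to at most 2.57 CPM in any embryo. The cumulus and granulosa cell list summed to 731, 694 and 715 CPM in Day3-E1, Day3-E3 and Day3-E5, within the range of the Day 2 embryos. It came to 601 CPM in Day3-E6, which had the highest RHEBL1, and to 278 to 446 CPM in the other Day 3 embryos. A relation of these sums to RHEBL1 was not tested.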

How the data were processed

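Per the labels and the methods of the study, STAR 2.5.2b aligned the reads to the bovine genome build Bos tau7 with the ERCC sequences, and the Drop-seq pipeline counted the UMI. The authors deposited whole-number UMI counts of 170 cells. They also deposited a signal table of 161 cells, described in the methods as UMI scaled by the total of a cell. The values do not follow that description, since only 0.634% of those above 0 equalled the ones computed from the cell's own total (tolerance 1e-06) and the column sums ran from 3655 to 609410, so the table was used for 1 alternative only.

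The 9 cells under 2000 UMI were left out, as in the study. They held 0 UMI of the listed members, except for 1 RHEBL1 UMI in a Day3-E8 cell. UMI were summed per embryo, because cells of 1 embryo are not replicates. Embryos are separate samples in the labels. Day 3 was compared with Day 2 by edgeR 4.0.16 (R 4.3.3; TMM, filterByExpr, robust quasi-likelihood test, Benjamini-Hochberg, threshold 0.05), with DESeq2 1.42.0 as an alternative. In simulated data for this comparison, with 200 genes of 5143 changed 4-fold, 182 changed genes passed the filter and 100% of these were recovered, with 9 false calls among 191. The simulation held no difference between barcode sets and no Day 3 embryo close to Day 2. It therefore checks the working of the test and does not give its error rate in the real data. Ratios were tested by exact permutation of embryos (scipy 1.17.1). Confidence intervals are at 95% (exact Poisson or Clopper-Pearson).

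Members and lists were chosen with earlier results of these data known. Named were all members, up to 4 called genes per list with the largest change, and the 5 genes most like RHEBL1 over 14 and over 8 embryos. In addition, some genes tested but not called were named as examples. Some genes of the lists are counted but not reported by name here. Gene symbols are those of the table, and no coordinates or sequences were used here.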

Additional observations from a re-analysis of the deposited data

Results flagged for a closer look

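Each group of 6 or 8 embryos was examined for a single embryo far from the others (Dixon's test at 95%), for the level of each listed gene, the RHEBL1 to RHEB ratio, the spread of RHEBL1 and the UMI on genes per ERCC UMI. Of 16 groups examined, 3 held such an embryo. Chance gives about 1 in 20. RHEB in Day2-E6 was at 50.1 CPM, from 22 UMI, with a gap of 0.731 of the range to the next Day 2 embryo. The index of dispersion of RHEBL1 between cells was 2.6 in Day2-E4 (gap 0.699 of the range), where 1 cell held 8 RHEBL1 UMI (150 CPM) and another 1 UMI (9.11 CPM) among the cells with 10000 or more UMI. The index was 12.6 in Day3-E5 (gap 0.592 of the range), where 1 shallow cell held 11 UMI, and 7.119 without cells under 10000 UMI. No explanation was tested for these values.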

How the results depend on the processing

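The count of genes called between the days was 1674. It was 748 with cells thinned to 10000 UMI (2756 genes tested), 200 within the first barcode set and 695 with the embryo number as a block, and, in alternatives chosen after seeing the data, 469 with Day3-E3 added to the first set and 113 with the barcode set as a term. Leaving out each embryo in turn gave 1319 to 2158 calls, the most without Day3-E1, where 917 genes were called lower. DESeq2 called 2217 genes, among them all 1674. Genes called lower went from 551 to 966 without TMM scaling, which moved the median log2 fold change to -0.28, and to 1877 with spike-in library sizes, against 455 higher. The change of RHEBL1 was smaller, and no longer called, within the first barcode set (1.13) and with the barcode set as a term (1.11), both fits without Day3-E3. It kept its call under the other 25 alternatives, with log2 fold changes of 2.97 to 3.31 when each embryo was left out. RPTOR was called with spike-in library sizes only (-1.01). With the embryo number as a replicate block (embryos E1 to E6), RHEBL1 changed by 2.497 and the ratio by 2.38 (exact p = 0.03125, the smallest this design allows). The labels do not say whether the numbers pair embryos. The correlation of deviations of embryos with the same number was -0.13 to 0.02, which does not settle it, as differently numbered embryos were not set beside them. The ratio kept its call under all 25 alternatives (2.46 to 2.902 when each embryo was left out, 3.09 from the deposited normalised values). Depth limited MLST8, tested only without the filter, and RHEB, with 5 to 25 UMI per embryo.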
